A study of Mus musculus with 4 samples.

Results

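The Toll-like receptor genes examined here were 10 genes of bacterial and nucleic acid sensing: the receptors Tlr1, Tlr2, Tlr3, Tlr4, Tlr5, Tlr6 and Tlr9, the adaptor Myd88, and the lipopolysaccharide co-receptors Cd14 and Ly96. They were chosen by name, with earlier results of these data known. Each transcription start site (TSS) was taken from the curated RefSeq annotation of mm10. SMAD4 peaks were assigned to a gene when the summit lay in its body or within 50 kb of a TSS. This gave 36 of 16369 peaks in replicate 1 and 44 of 19015 peaks in replicate 2. In the windows of the 10 genes, 28 regions were shared, meaning that peaks of both replicates overlapped by at least 1 bp, of 10964 shared regions in all.

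The cells were alveolar macrophages (AMs), which live in the airspaces of the lung, taken by bronchoalveolar lavage and cell sorting from 9-wk-old wild-type C57BL/6J mice. SMAD4 joins the SMAD proteins activated by TGFβ family receptors and enters the nucleus with them, and its binding was measured by HT-ChIPmentation, an immunoprecipitation of chromatin in which adapters are inserted by Tn5 transposase on the beads. The series held 4 samples, 2 SMAD4 libraries and 2 input libraries, all of wild-type AMs with no treatment named, and the inputs entered only as the control behind each peak. The sources do not say whether the replicates came from separate mice, so that their spread may be technical. With 1 condition, 1 genotype and 2 peak lists, no group comparison and no test was possible, and the values below are descriptions. Each library pooled many sorted cells, so that a site bound in few cells and a site bound weakly in all of them cannot be told apart.

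Toll-like receptors recognise conserved molecules of microbes. TLR2 pairs with TLR1 or TLR6 to bind lipopeptides, TLR4 with its partner MD-2, encoded by Ly96, binds lipopolysaccharide handed over by CD14, TLR5 binds flagellin, and TLR3 and TLR9 sense double-stranded RNA and unmethylated CpG DNA in endosomes. MyD88 is the adaptor through which all of the receptors listed except TLR3 signal to NF-κB. Which of these receptors AMs use was not measured here.

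For each peak the fold enrichment over the control and the number of fragments stacked at the summit were used. Peak calling at a q-value of 0.05 needed at least 9 fragments at the background control level in replicate 1 and 7 in replicate 2, which corresponds to folds of 3.25 and 3.6. Weaker binding was therefore not detectable at this depth. The median shared region had a fold of 6.82 in replicate 1 and 9.48 in replicate 2, and since replicate 2 gave higher folds at 87.2% of all shared regions, each fold was also taken relative to its list's median on a log2 scale. Intervals on fragments are exact 95% Poisson intervals and cover counting error only. Of 8 marker genes of AMs, 7 were nearest to a shared region, Fabp4 being the exception, beside 21.5% of all protein-coding genes. Of 10 marker genes of other lung and blood cells, 3 were, the neutrophil genes S100a8 and S100a9 and the club cell gene Scgb1a1. Scgb1a1 was nearest to 4 regions, as many as the AM gene Car4, and among the AM genes only Pparg, with 11, had more. Binding near a gene is no measure of its expression, and the part of other cells in these lists was not tested.

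Shared SMAD4 regions lay in the windows of 8 of the 10 genes, beside 39.1% of all 20923 protein-coding genes counted in the same way. A peak of replicate 1 was present in the windows of 9 genes, beside 46.6% of protein-coding genes, and a peak of replicate 2 in those of 8, beside 53.4%. Windows overlap where genes lie close together, so each shared region was also given to the gene with the nearest TSS. By this measure 6 of the 10 genes had a region of their own, Tlr2, Tlr4, Tlr5, Tlr6, Cd14 and Ly96, beside 21.5% of protein-coding genes. They held 23 regions in all, 22 inside the windows and 1 beyond the window of Ly96. The median of the 10 genes was 2.5 shared regions in the window and 1 nearest to the TSS, and over all protein-coding genes both medians were 0.

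The regions were spread very unevenly over the 10 genes. Tlr2 was nearest to 8 shared regions, Tlr4 and Tlr5 to 5 each, Cd14 to 3, and Tlr6 and Ly96 to 1 each. Tlr1, Tlr3, Tlr9 and Myd88 had none. At least as many nearest regions as Tlr2 were found at 0.444% of protein-coding genes, and at least as many as Tlr4 or Tlr5 at 1.7%. The windows of these 3 genes held no TSS of another gene. Among the 4344 protein-coding genes with no other TSS in the window, 32.9% had a nearest shared region, 5.04% had 5 or more and 1.4% had 8 or more.

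**Figure D1:**
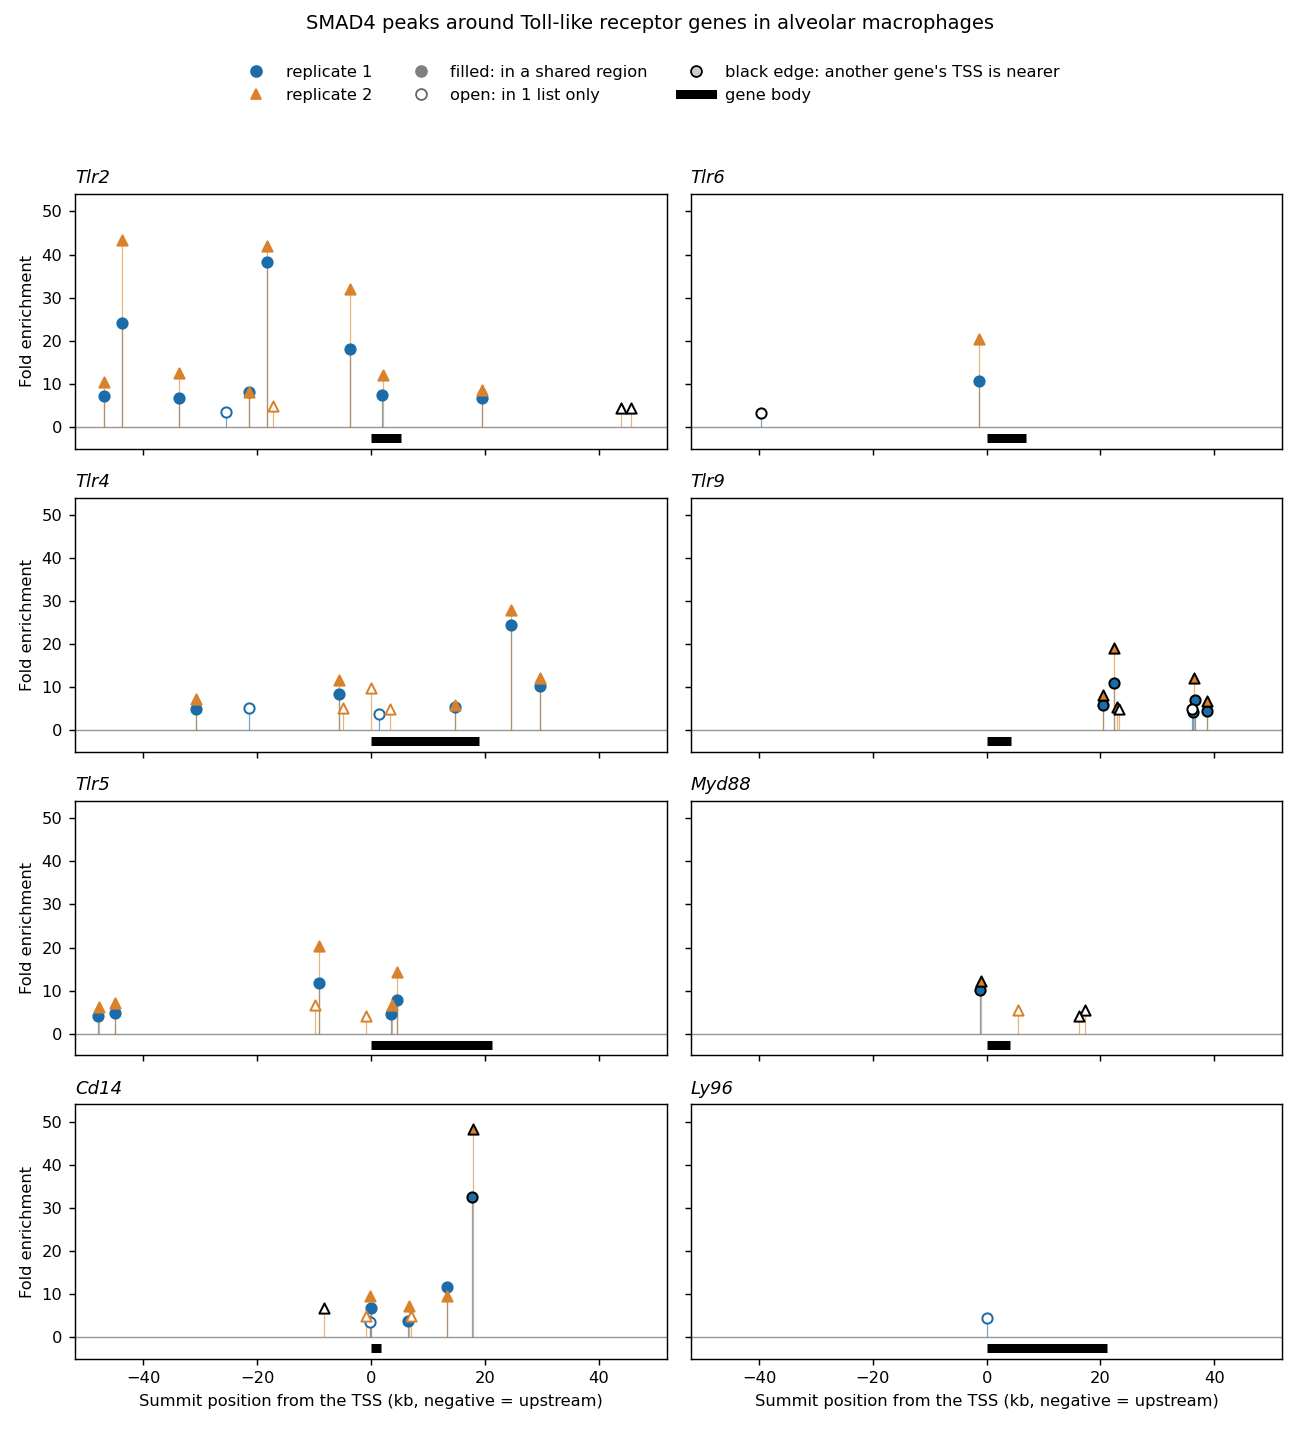
SMAD4 peaks in the windows of 8 genes, with the summit position from the TSS in kb along the direction of the gene (x axis) and fold enrichment over the control (y axis). Circles are peaks of replicate 1 and triangles peaks of replicate 2, filled where the peaks of both replicates overlapped, open where 1 list alone had the peak, and edged in black where the TSS of another gene was nearer; the bar is the gene body. Tlr2, Tlr4 and Tlr5 show rows of filled pairs, and Ly96 a single open circle. For Tlr9 and Myd88 all filled symbols have black edges. Both also show open symbols, among them a triangle of Myd88 at 5.575 kb without a black edge. Tlr1 shares the filled pair drawn for Tlr6, and Tlr3 had no peak.

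Tlr2, the lipopeptide receptor, had the highest folds in both replicates among regions nearest to the 10 genes. A region in the window of Cd14 that was nearest to another gene, described with Cd14, had a higher fold in replicate 2 (48.3, against at most 43.3 for Tlr2) and a lower one in replicate 1 (32.5 against 38.3). The gene lies on the minus strand at chr3:83836272-83841608. Its strongest region, chr3:83859056-83860271, was intergenic with its summit 18293 bp upstream of the TSS. There the fold was 38.3 in replicate 1 and 42 in replicate 2, from 117 summit fragments (95% interval 96.8 to 140) and 92 (74.2 to 113). Taking the smaller of both folds, it stood at percentile 99.9 of all shared regions, and its log2 fold relative to the median region was 2.32 ± 0.24 (SD, n = 2). A second region, chr3:83884939-83885822, lay 43704 bp upstream, with folds of 24.0 and 43.3 from 73 (57.2 to 91.8) and 95 (76.9 to 116) fragments. The third, chr3:83844934-83845630, lay 3721 bp upstream and reached folds of 18.2 and 32 from 55 (41.4 to 71.6) and 70 (54.6 to 88.4) fragments. The order of the first and the second differed between replicates, the first being higher in replicate 1 and the second by a small margin in replicate 2.

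The sequences around these 3 summits are given because they were the strongest near Tlr2. Each is 201 bases of the mm10 plus strand from RefSeq GRCm38, with the summit at its centre. Capitals mark matches, on either strand, to short strings known from the binding sites of SMADs (GTCTAGAC, GTCTGG and CAGACA), C/EBP factors (TTGCNNAA), PU.1 (GAGGAAGT), the core of ETS factors (GAGGAA), AP-1 (TGANTCA), RUNX (TGTGGT), STATs (TTCNNNGAA), E-box factors (CACGTG), NF-κB (GGGANTTTC), IRFs (GAAANNGAA) and nuclear receptors (AGGTCA). The PU.1 string contains the ETS core, and GTCTGG on the minus strand can overlap CAGACA.
Tlr2, 18293 bp upstream, chr3:83859801-83860001: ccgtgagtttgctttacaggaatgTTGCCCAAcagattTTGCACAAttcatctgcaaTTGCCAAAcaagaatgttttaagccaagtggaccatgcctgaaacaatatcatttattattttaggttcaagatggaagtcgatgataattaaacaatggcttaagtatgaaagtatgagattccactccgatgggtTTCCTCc
Tlr2, 43704 bp upstream, chr3:83885212-83885412: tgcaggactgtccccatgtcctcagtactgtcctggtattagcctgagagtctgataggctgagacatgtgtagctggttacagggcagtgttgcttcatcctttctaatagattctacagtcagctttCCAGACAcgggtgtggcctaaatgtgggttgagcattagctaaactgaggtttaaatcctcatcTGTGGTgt
Tlr2, 3721 bp upstream, chr3:83845229-83845429: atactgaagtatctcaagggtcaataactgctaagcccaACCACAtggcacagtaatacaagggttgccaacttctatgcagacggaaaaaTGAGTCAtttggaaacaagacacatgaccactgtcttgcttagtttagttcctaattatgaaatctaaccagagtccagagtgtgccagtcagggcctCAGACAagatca
The strongest window held 3 C/EBP strings, TTGCCCAA, TTGCACAA and TTGCCAAA, with starts 76, 62 and 43 bp from the summit on 1 side, an ETS core, and no SMAD string. The window 43704 bp upstream had an overlapping GTCTGG and CAGACA pair, with the first base 29 bp from the summit, and a RUNX string. The window 3721 bp upstream had the AP-1 string TGAGTCA 9 bp from the summit, CAGACA and a RUNX string. The 3 windows thus differed in the strings they held.

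The other 5 regions of Tlr2 were weaker. The region 2037 bp downstream of the TSS, in intron 2 of the gene, had folds of 7.5 and 12.1, with a control level of 3.14 fragments in replicate 1 against the background of 2.08. Regions 21516, 33708 and 46947 bp upstream and 19585 bp downstream had folds from 6.82 to 8.12 in replicate 1 and from 8.12 to 12.6 in replicate 2. Their summit fragments, 20 to 24 in replicate 1 and 17 to 27 in replicate 2, had overlapping intervals. None of the 8 regions lay in the promoter, taken as 1 kb upstream to 100 bp downstream of the TSS. Another 3 peaks in the window of Tlr2 were found in replicate 2 alone and 1 in replicate 1 alone, the strongest with a fold of 4.96 from 10 fragments, 17250 bp upstream and next to the strongest region.

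Tlr4, the lipopolysaccharide receptor, lies on the plus strand at chr4:66827551-66846581. Its strongest region was behind the gene, at chr4:66851594-66852629, with a summit 24667 bp downstream of the TSS and past the end of the transcript. The folds were 24.4 and 28.0 from 74 (58.1 to 92.9) and 66 (51.0 to 84.0) fragments, at percentile 98.1, and the log2 fold relative to the median region was 1.7 ± 0.19 (SD, n = 2). A region 29641 bp downstream had folds of 10.4 and 12.2, and a region 5573 bp upstream had 8.45 and 11.7. Weaker values were found 14771 bp downstream, in exon 3 and the last of the gene (5.52 and 5.87), and 30703 bp upstream (4.87 and 7.22). The intervals of the strongest region were separate from those of the other 4 in both replicates.

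The window of the strongest Tlr4 region is shown because it held none of the 13 strings, which says only that these letters were not found within 100 bp of the summit. The strongest regions of Tlr5 and Tlr6 and the region in front of Myd88 are shown with it.
Tlr4, 24667 bp downstream, chr4:66852118-66852318: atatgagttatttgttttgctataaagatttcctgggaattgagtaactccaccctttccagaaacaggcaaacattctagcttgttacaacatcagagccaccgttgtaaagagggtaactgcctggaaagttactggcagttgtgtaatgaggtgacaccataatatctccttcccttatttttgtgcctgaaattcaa
Tlr5, 9057 bp upstream, chr1:182945631-182945831: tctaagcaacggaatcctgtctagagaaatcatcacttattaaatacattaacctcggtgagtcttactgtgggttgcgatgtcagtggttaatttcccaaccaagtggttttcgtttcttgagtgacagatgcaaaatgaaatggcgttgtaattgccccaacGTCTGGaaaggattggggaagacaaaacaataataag
Tlr6, 1330 bp upstream, chr5:64961278-64961478: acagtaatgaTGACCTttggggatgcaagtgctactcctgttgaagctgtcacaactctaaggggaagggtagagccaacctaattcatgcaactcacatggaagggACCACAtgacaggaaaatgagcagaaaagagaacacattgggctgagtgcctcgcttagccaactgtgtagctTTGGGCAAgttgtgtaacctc
Myd88, 1086 bp upstream, chr9:119341004-119341204: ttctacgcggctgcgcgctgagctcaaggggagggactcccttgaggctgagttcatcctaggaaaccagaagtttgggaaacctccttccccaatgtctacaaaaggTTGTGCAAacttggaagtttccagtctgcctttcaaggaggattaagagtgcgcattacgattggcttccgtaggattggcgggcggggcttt
In these windows the strings were GTCTGG for Tlr5, starting 64 bp from the summit, a C/EBP, a RUNX and a nuclear receptor string for Tlr6, and the C/EBP string TTGCACAA, read on the minus strand, 8 bp from the summit in front of Myd88.

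At the promoter of Tlr4 a peak was called in 1 list only. In replicate 1, binding below 9 fragments at the background control level would not have been called. Replicate 2 had a peak at chr4:66827370-66827687 with its summit 13 bp upstream of the TSS, a fold of 9.93 and 21 fragments (13.0 to 32.1). No peak of replicate 1 overlapped it. This was the strongest of all unshared peaks in the windows of the 10 genes, and its fold was above the median of the shared regions of replicate 2. The other 4 unshared peaks of Tlr4 had folds from 3.9 to 5.26.

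Tlr5, the flagellin receptor, lies on the plus strand at chr1:182954788-182976044. Its 5 regions were weaker than the leading regions of Tlr2 and Tlr4. The strongest, chr1:182945502-182945900, lay 9057 bp upstream with folds of 11.7 and 20.3 from 35 (24.4 to 48.7) and 44 (32 to 59.1) fragments, and the summits of both replicates were 1 bp apart. In intron 1, regions 4522 and 3633 bp downstream of the TSS had folds of 7.80 and 14.4 and of 4.55 and 6.77. Regions 44937 and 47885 bp upstream had folds of 4.87 and 7.22 and of 4.22 and 6.32. The median over the 5 regions was 4.87 in replicate 1 and 7.22 in replicate 2, below the median shared region of both lists, whereas for Tlr2 (7.81 and 12.4) and Tlr4 (8.45 and 11.7) it was above it. Replicate 2 alone had a promoter peak of Tlr5 814 bp upstream, with a fold of 4.06 from 8 fragments, and a peak 9889 bp upstream with a fold of 6.70 from 15.

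Tlr6 and Tlr1, neighbours on the minus strand of chromosome 5 whose products pair with TLR2, shared 1 region. The region, chr5:64960823-64961750, lay 1330 bp upstream of Tlr6 and 27820 bp upstream of Tlr1. Its folds were 10.7 and 20.3, from 32 (21.9 to 45.2) and 44 (32 to 59.1) fragments, and its log2 fold relative to the median region was 0.88 ± 0.32 (SD, n = 2). Assigned to the nearest TSS it belonged to Tlr6, which left Tlr1 with none. The bodies of both genes held no peak in either list. A single further peak near Tlr6, in replicate 1 with a fold of 3.24, lay in an intron of Fam114a1 where the control level was 5.49 fragments.

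Cd14 encodes the receptor that passes lipopolysaccharide to TLR4 and MD-2. It was the only one of the 10 genes with a shared region in the promoter, beside 3.1% of protein-coding genes. The gene lies on the minus strand at chr18:36725064-36726815, and the region, chr18:36726551-36727012, had its summit 28 bp upstream of the TSS. The fold was 6.82 in replicate 1 and 9.48 in replicate 2, from 20 fragments (12.2 to 30.9) in each, equal to the median shared region of both lists. The summits of both replicates were 137 bp apart. Downstream of the TSS, a region at 13302 bp had folds of 11.6 and 9.63, and a region at 6604 bp had 3.68 and 7.22, with a control of 4.70 fragments in replicate 1. The fold was higher in replicate 2 at 21 of the 23 regions, and the region at 13302 bp was 1 of the 2 exceptions. Another 4 peaks were each in 1 list only, the strongest in replicate 2 at the promoter of Tmco6 with a fold of 6.77 from 14 fragments, and among those nearest to Cd14 862 bp upstream with 5.02 from 11. The window held the TSSs of 8 other genes. Its strongest region, chr18:36708240-36709592, lay 17853 bp downstream of Cd14 with folds of 32.5 and 48.3 from 99 (80.5 to 121) and 106 (86.8 to 128) fragments, at percentile 99.5, and its nearest TSS was that of E230025N22Rik. It was stronger in both replicates than every region nearest to Cd14, and which of these genes it bears on was not tested.

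Ly96 encodes MD-2, the partner of TLR4 that holds lipopolysaccharide. The gene, on the plus strand at chr1:16688456-16709605, had no shared region in its window. Its nearest region was at chr1:16747079-16747688, with the summit 58948 bp downstream of the TSS, beyond the limit of 50 kb, and had a fold of 11.7 in both replicates, from 35 (24.4 to 48.7) and 25 (16.2 to 36.9) fragments. The only peak in the window was 152 bp downstream of the TSS, in an exon, in replicate 1 alone, with a fold of 4.55 from 13 fragments (6.92 to 22.2).

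Tlr9, the endosomal receptor of CpG DNA, had 4 shared regions in its window and none nearest to its TSS. All 4 lay downstream of the gene and were nearest to Alas1, which encodes the first enzyme of heme synthesis. The strongest, chr9:106244760-106245592, was in intron 2 of Alas1, 22384 bp from the TSS of Tlr9, with folds of 11 and 19 from 33 (22.7 to 46.3) and 41 (29.4 to 55.6) fragments. The others had folds from 4.55 to 7.15 in replicate 1 and from 6.77 to 12.2 in replicate 2. Each list also had 1 unshared peak there, with folds of 4.87 and 4.96. The body of Tlr9, chr9:106222598-106226876, held no peak in either list.

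Myd88, the common adaptor, had 1 shared region in its window. The gene lies on the minus strand at chr9:119335934-119340018, and the region, chr9:119340861-119341382, had its summit 1086 bp upstream of the Myd88 TSS. This is just outside the promoter as defined, and the TSS of Acaa1a, a peroxisomal thiolase gene, was nearer, so that the region counted for the promoter of Acaa1a. The folds were 10.1 and 12.2 from 30 (20.2 to 42.8) and 26 (17.0 to 38.1) fragments, and the log2 relative fold was 0.46 ± 0.14 (SD, n = 2). Another 3 peaks in the window came from replicate 2 alone, with folds of 5.41 or less.

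Tlr3, the receptor of double-stranded RNA at chr8:45395665-45410619, had no peak of either replicate in its window. It was the only one of the 10 genes without any. Binding below 9 fragments in replicate 1 or 7 in replicate 2 would not have been called there.

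Ranked by the strongest nearest region and the smaller fold of the replicates, the order was Tlr2 (38.3), Tlr4 (24.4), Tlr5 and Ly96 (11.7 each), Tlr6 (10.7) and Cd14 (9.63). The fragment intervals of Tlr2 and Tlr4 were separate in replicate 1 and overlapped in replicate 2. Those of Tlr4 and Ly96 were separate in both, and those of Tlr4 and Tlr5 were separate in replicate 1 and overlapped in replicate 2. Among Ly96, Tlr5, Tlr6 and Cd14, taken in this order, the intervals of neighbours overlapped in both replicates. Tlr2 and Tlr4 came first and second under the fold of each replicate, the −log10 q of each replicate and the fold relative to the median, while the order of the other 4 changed with the measure.

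**Figure D2:**
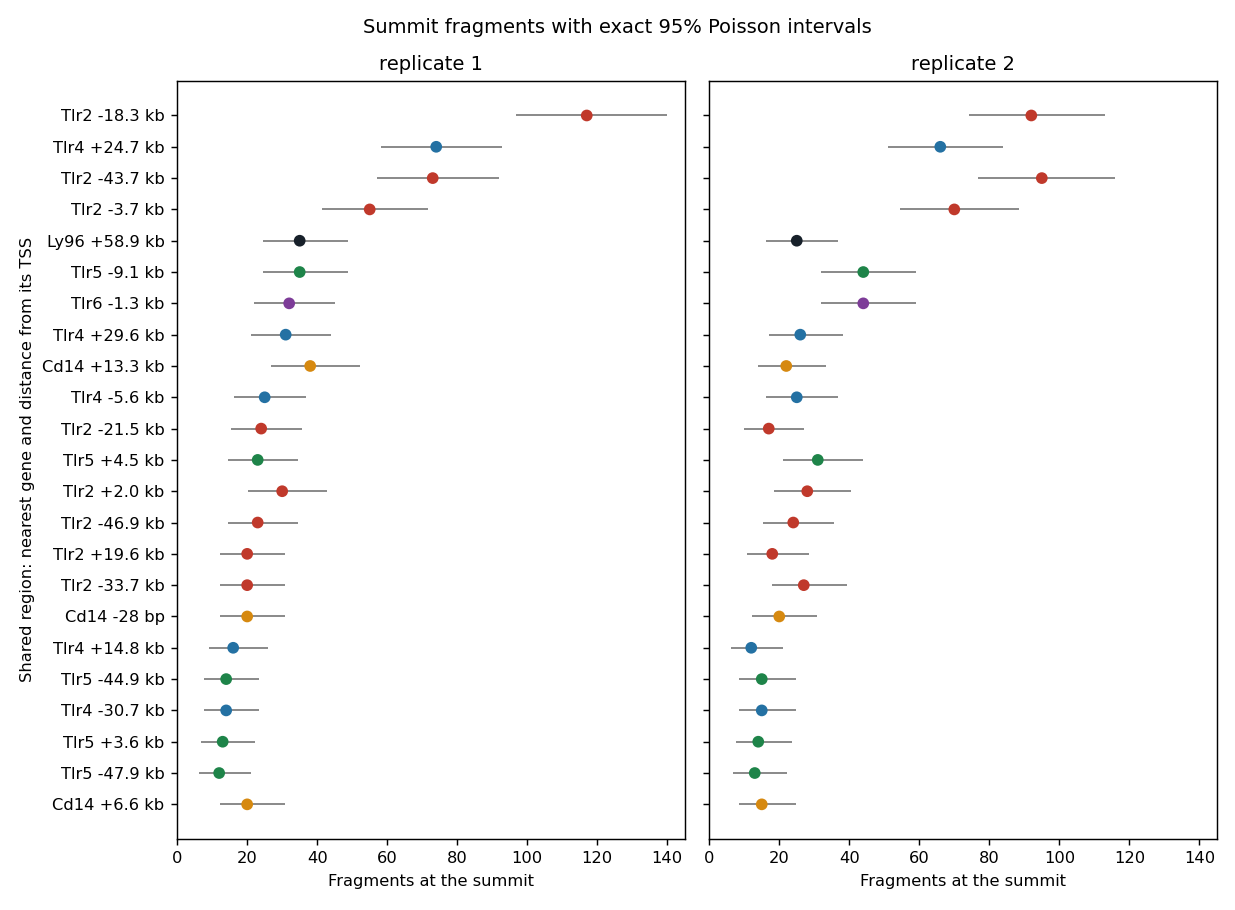
Fragments at the summit (x axis) of the 23 shared regions nearest to a Toll-like receptor gene, in replicate 1 (left) and replicate 2 (right), with exact 95% Poisson intervals. Regions are ordered by the smaller fold of both replicates and coloured by gene. The top 4, 3 of them of Tlr2, lie at 55 fragments or more in both replicates, and the other 19 at 44 or fewer.

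Over the 23 regions the median fold was 7.8 in replicate 1 and 11.7 in replicate 2, beside 6.82 and 9.48 over all shared regions. In both replicates 13 of the 23 were above the list median, beside 38.8% of all shared regions. The top 10% by the smaller fold, which with ties took in 10.4% of all shared regions, held 4 of the 23, all of them named above for Tlr2 and Tlr4, and the top 1% held 1. The ranks of the 23 folds were similar in both libraries, with a Spearman's rho of 0.861 across the 23 regions and 0.782 across all shared regions. These points share their libraries and the requirement of a peak in both, and regions are not independent replicates.

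**Figure D3:**
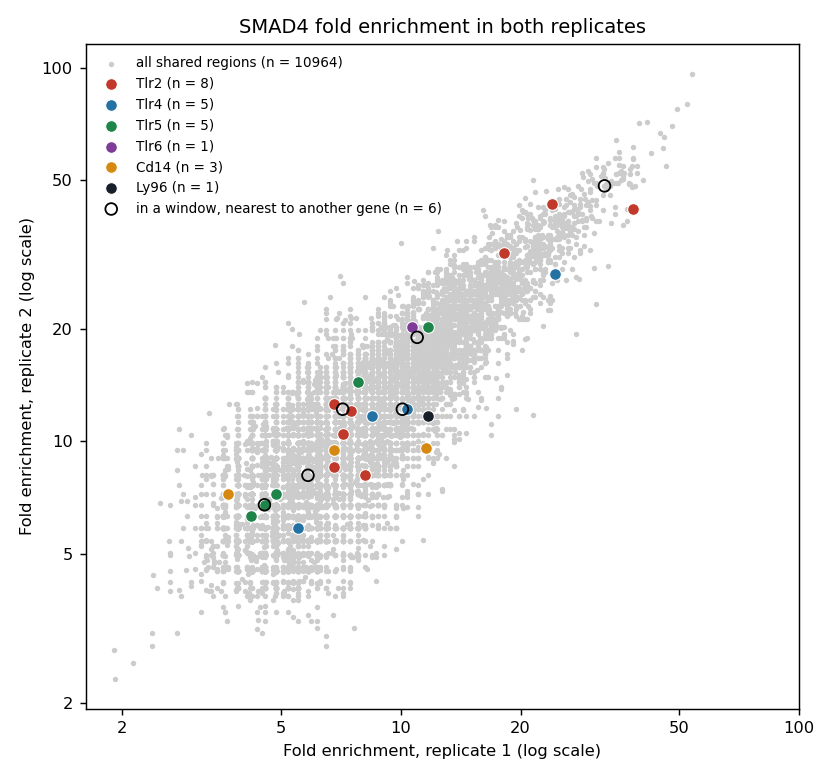
Fold enrichment in replicate 1 (x axis) against replicate 2 (y axis), both on log scales, for all 10964 shared regions (grey) and for those nearest to a Toll-like receptor gene (coloured by gene). Open circles are the 6 regions in a window that were nearest to another gene. The 3 leading Tlr2 regions, 1 of Tlr4 and the open circle of the Cd14 window at 32.5 and 48.3 lie toward the upper end of the cloud, and the other coloured points have folds of at most 11.7 in replicate 1 and 20.3 in replicate 2.

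The 23 regions were mostly intergenic. Of them, 18 were intergenic (78.3%, beside 40.5% of all shared regions), 3 were intronic (13.0% beside 49.3%), 1 was exonic and 1 lay in a promoter. The genes concerned are short, with bodies from 1752 bp for Cd14 to 21257 bp for Tlr5, and the part of gene length in these shares was not tested. The median distance from the TSS was 18293 bp, beside 18040.5 bp over all shared regions, and 9 of the 23 lay within 10 kb (39.1% beside 35.6%). Upstream of the TSS lay 13 and downstream 10. The median GC content was 42.8%, beside 43.8%, and no region had over 50% of its window in repeats, beside 4.14% of all shared regions.

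Across the 23 windows, the most frequent strings were the ETS core in 9 (39.1% beside 34.7% of all shared regions), the C/EBP string in 8 (34.8% beside 40.8%) and the RUNX string in 8 (34.8% beside 26.4%). A nuclear receptor string was found in 5 (21.7% beside 15.4%), CAGACA in 4 (17.4% beside 19%), and GTCTGG, AP-1 and STAT strings in 3 each, beside 11.2%, 12.3% and 8.09%. At least 1 SMAD string was present in 5 of 23 windows, beside 24.9% of all shared regions. The E-box was present in 2 (8.7% beside 3.68%). The palindrome GTCTAGAC, the PU.1 string, the NF-κB string and the IRF string were found in none, beside 0.465%, 8.01%, 0.885% and 8.67% of all shared regions. In 5 windows none of the 13 strings was found. At this number of regions 1 window is 4.35%, and most of these shares were within a few windows of those of all shared regions.

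**Figure D4:**
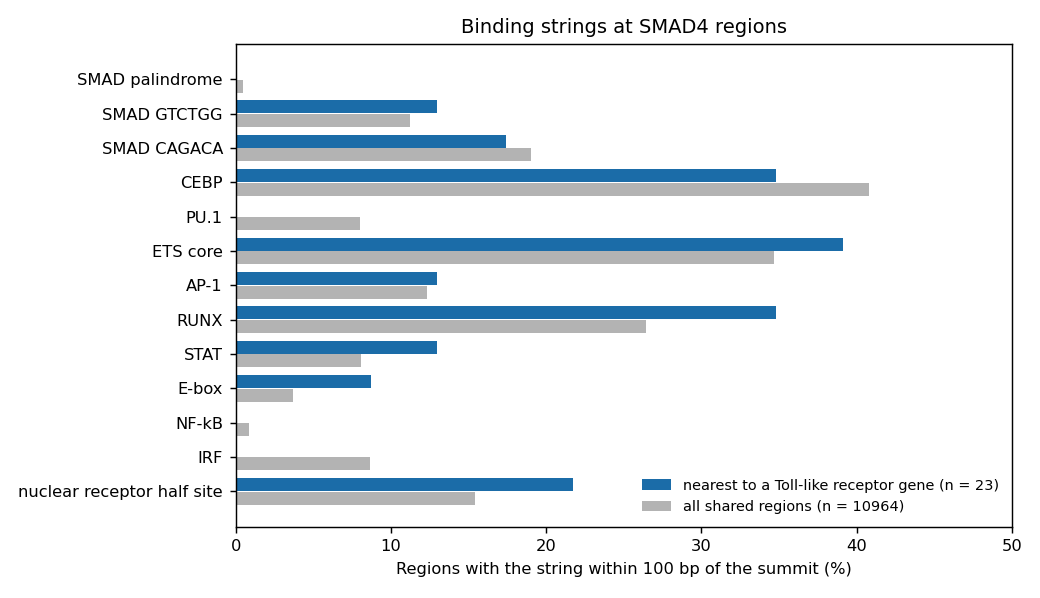
Share of regions (x axis, in percent) with each of 13 strings (y axis) within 100 bp of the summit, for the 23 shared regions nearest to a Toll-like receptor gene (blue) and all 10964 shared regions (grey). The ETS core, C/EBP and RUNX strings are the most frequent in both, and 4 strings have no blue bar.

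Of the 36 and 44 peaks in the windows, 7 and 15 were in 1 list only, where 30.6% of all peaks of replicate 1 and 40.8% of all peaks of replicate 2 were. The 7 of replicate 1 had folds from 3.24 to 5.2 (median 3.9), and the 15 of replicate 2 had folds from 4.06 to 9.93 (median 4.96). The medians over all unshared peaks were 4.52 and 5.41. Among the 22, a TSS of the gene itself was nearest for 5 in replicate 1 and 9 in replicate 2.

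Other genes of the pathway were counted in the same way. Of 34 genes, 18 had a shared region in the window and 15 were nearest to at least 1, beside the 39.1% and 21.5% of protein-coding genes given above, with 45 regions in all. Among the other receptors, Tlr7, Tlr8 and Tlr13 of 5 had a nearest region, all on the X chromosome. Among the genes of receptor trafficking and co-receptors, Cnpy3, Hsp90b1, Cd36, Cd180 and Ly86 of 7 had 20 regions in all. Of 4 genes grouped as further adaptors only Ticam2 had a nearest region. Of 12 grouped as kinases, ligases and their partners, Irak2, Tbk1, Ikbke and Pik3ap1, itself an adaptor gene with 5, did. Of 6 genes that restrain the pathway, Tnfaip3 and Tnip1 did.

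By the smaller fold of both replicates, none of these genes had a region above the strongest of Tlr2. Cd36, a scavenger receptor that assists TLR2 and TLR6, had folds of 37.4 and 48.7 at an intronic region 1874 bp past its TSS, and 10 nearest regions. Pik3ap1, the adaptor BCAP, had folds of 26.3 and 37.9 at 33114 bp upstream. Tlr7, a receptor of single-stranded RNA, had 20.1 and 26.6 at 8258 bp upstream. Tnfaip3, which encodes the inhibitor A20, had 19.5 and 32 at 2687 bp downstream in an intron, and Tlr13, a receptor of bacterial ribosomal RNA, had 14.6 and 18 in an intron and 6 nearest regions. By the smaller fold, Tlr2 (38.3) and Cd36 (37.4) were thus close, with 117 and 114 fragments in replicate 1 and 92 and 107 in replicate 2.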

How the data were processed

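SMAD4 HT-ChIPmentation was analysed in 2 libraries of sorted wild-type AMs. Per the labels and the study's methods, the authors used Cutadapt, Bowtie2 on mm10 and samtools, removed duplicates, and called peaks in each library, without pooling, with MACS3 at a q-value of 0.05 against input. Each deposited peak has a fold ratio over the control, a −log10 p and a −log10 q, a summit, and a score that repeats the −log10 q in coarser form and was not used.

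Fold and p were solved for the summit fragments and the control level, whole within 0.02 fragments for 100% of the peaks of both lists. Sequencing depth was otherwise not used, and the recovered background control, 2.08 fragments in replicate 1 and 1.22 in replicate 2, is the measure of depth. The solver and the counting were tested on simulated data. The annotation was RefSeq on GRCm38, the assembly of mm10, with 45657 curated transcripts from 26089 genes. Peaks of both lists overlapping by 1 bp or more were merged, with the mean of the strongest summits as summit and the values of the strongest peak of each list.

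The 10 genes, the other lists and the strings were chosen with earlier results of these data known. Named were all 10 genes, every shared region nearest to one, the strongest region of a window nearest to another gene, the strongest unshared peaks, and the 5 pathway genes with the highest smaller fold. Replicates were numbered in accession order. No test was run, since 2 lists of 1 condition allow none. Alternatives changed the window, transcript set, peak threshold, overlap, string window, summit and ranking, and left out each replicate. Python 3.11.15, numpy 2.4.6, pandas 2.3.3, scipy 1.17.1, pysam 0.24.0 and matplotlib 3.10.9 were used.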

Additional observations from a re-analysis of the deposited data

How the results depend on the processing

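Of 133 values under another setting, 111 were within 1.5 times the value reported and 22 were counted as moved. Of 76 total counts of genes, regions or strings, 5 moved. The other moves were in the counts of regions with a single string and in the order of the genes. Within 50 bp of the summit, regions with the C/EBP string fell from 8 to 4 and those with the ETS core from 9 to 3. With a window of 10 kb in place of 50 kb, the shared regions in the windows of the 10 genes fell from 28 to 11, and the protein-coding genes with one from 8186 to 4319, while 6 of the 10 genes and 20.6% of protein-coding genes had a region. With 100 kb these were 10 genes and 54.9%. Counting the peaks of 1 replicate alone, shared or not, gave 36 to 44 in the windows. The strings found at the 23 regions, 45 in all, were 26 within 50 bp of the summit and 69 within 200 bp. Within 200 bp, 1 region had the PU.1 string and 1 the IRF string, which none had within 100 bp. Centred on the summit of replicate 2, 1 region had the IRF string and 5 in place of 3 the STAT string. Shares of single strings thus depend on the window and on the summit. Of the 10 genes, 6 were nearest to a shared region under every setting but replicate 2 alone, which added 1. The share of protein-coding genes nearest to one moved too. It was 21.5% as reported, 17.9% at a minimum fold of 5, 27.2% with replicate 1 alone and 31.2% with replicate 2 alone. No paired analysis was possible because the result comes from no test. Depth limits the weak end: regions at or near 9 and 7 fragments were at the limit of calling.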
